A study of Mus musculus with 6 samples.

Results

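Immediate early genes are the first genes that a cell transcribes after a stimulus, before any new protein is made, and dissociating a tissue into single cells is one such stimulus. The report follows 32 genes of this kind, chosen by name and matched by symbol among the 32287 genes in the feature files, all of which were found. They comprise the AP-1 family factors Fos, Fosb, Jun, Junb, Jund, Atf3 and Maff, the factors Egr1, Egr3 and Nr4a1, the Krüppel-like factors Klf2, Klf4 and Klf6, the feedback inhibitors Dusp1, Dusp5, Dusp6, Zfp36, Socs3 and Rgs16, the growth arrest and stress genes Gadd45b, Gadd45g, Btg2, Cdkn1a, Plk2, Ier2 and Ier3, the endothelial or secreted products Apold1, Ccn1, Tcim and Depp1, and the inducible heat shock genes Hspa1a and Hspa1b.

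The genes were measured by droplet single-cell RNA sequencing of brain microvessels from 6 male mice aged 12 months, with 1 library per mouse. The 3 WT mice were C57BL/6J and the 3 ArcSwe mice carried the AppArcSwe transgene, a model of Alzheimer's disease with amyloid in vessel walls. All mice were untreated, and in all of them the cells of 1 hemisphere were freed with collagenase and captured as vessel fragments on CD31 beads, so no library shows these genes without dissociation. Library numbers run through the WT mice and then the ArcSwe mice, so position in that order and genotype cannot be told apart.

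Their promoters respond to factors that signals switch on within minutes. CREB on the cyclic AMP response element (CRE) and serum response factor on the CArG box are switched on through kinases, while heat shock factor binds the heat shock element once stress has freed it from chaperones. AP-1 proteins made in this first wave go on to switch later genes, while dual specificity phosphatases such as Dusp1 and Dusp6 remove phosphate from MAP kinases, Zfp36 destabilises the messages and Socs3 blocks cytokine receptors, which ends the response. In endothelium Klf2 and Klf4 are in addition held up by blood flow, so their presence does not by itself mark a stimulus.

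RefSeq promoter windows of GRCm38.p6, from 250 bases before to 50 bases after the start, were matched for 28 of the 32 genes, and those of Egr1, Egr3, Ier2 and Tcim were not printed. A gene was counted if any of its windows held the motif, and Cdkn1a had 2 windows and Maff 3. The full CRE, TGACGTCA, was found for 4 of the 28 genes (14.3%; Dusp1, Btg2, Plk2 and Maff), against 2.03% of 27025 genes. Its core, TGACGT, which was searched for after the full site was seen to be missing from the Fos window and which lies within the full site, was found for 8 genes (28.6%; Fos, Atf3, Dusp1, Dusp5, Ccn1, Btg2, Plk2 and Maff), against 8.37% of all genes. The CArG box was found for 2 genes (7.14%; Dusp5 and Zfp36), against 1.81%, and the TATA box, TATAAA, for 6 (21.4%; Fos, Junb, Apold1, Ccn1, Gadd45b and Gadd45g), against 15.7%. A heat shock element, GAANNTTC, was found for 4 genes (14.3%; Jun, Hspa1a, Hspa1b and Depp1), against 9.04%, and the AP-1 site, TGACTCA, for 0 genes, against 5.95%. Both strands were searched, and a match says only that the letters are there. The 150 bases before the start are shown for 4 genes that hold some of these motifs, each 5′ to 3′ on the gene's strand. They have no annotated exon over them, and the motifs are in capitals. Positions are counted from the start. The Fos stretch (chr12:85473740-85473889, plus strand) holds the CRE core at -66 to -61 and the TATA box at -33 to -28, and the Ccn1 stretch (chr3:145649986-145650135, minus strand) holds the core on its other strand at -59 to -54 and the TATA box at -25 to -20. The Plk2 stretch (chr13:110394894-110395043, plus strand) holds the full CRE at -62 to -55, and the Hspa1a stretch (chr17:34972157-34972306, minus strand) holds the heat shock element at -104 to -97.
Fos: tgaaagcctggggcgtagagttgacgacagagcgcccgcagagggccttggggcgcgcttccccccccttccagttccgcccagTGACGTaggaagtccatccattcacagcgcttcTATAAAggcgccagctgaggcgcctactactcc
Ccn1: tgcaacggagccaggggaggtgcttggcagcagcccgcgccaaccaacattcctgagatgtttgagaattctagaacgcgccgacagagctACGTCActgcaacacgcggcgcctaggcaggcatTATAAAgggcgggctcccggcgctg
Plk2: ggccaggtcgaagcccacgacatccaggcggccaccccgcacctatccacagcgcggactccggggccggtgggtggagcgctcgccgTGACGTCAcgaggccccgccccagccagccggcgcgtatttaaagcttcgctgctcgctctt
Hspa1a: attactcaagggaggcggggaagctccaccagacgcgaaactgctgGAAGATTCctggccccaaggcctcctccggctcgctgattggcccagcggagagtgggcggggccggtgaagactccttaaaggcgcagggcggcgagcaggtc

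Of 49059 deposited cell barcodes, 44112 had 500 to 4500 genes and under 10% mitochondrial UMIs and were kept, 2379 to 13389 per mouse with median depths of 2922 to 5542 UMIs. Pairs of libraries shared 4 to 42 barcodes. Cells were clustered with the 32 genes and related lists left out of the variable genes, and clusters were named from marker genes, so that the names below stand for cells like that type. In endothelial cells the summed level of 8 endothelial markers such as Cldn5 and Pecam1 lay between 16437 and 18386 CPM (counts of a gene per 1000000 UMIs) in the 6 mice. The microglial markers summed to 125 to 437 CPM there, with Cx3cr1 and Aif1 at 0 because cells holding them were left out. The erythroid markers were at 52.2 and 63.9 CPM in WT 1 and WT 2, 319 in WT 3, 34.2 and 55.7 in ArcSwe 1 and ArcSwe 2, and 446 in ArcSwe 3. All levels below are CPM of raw UMIs summed per mouse and class, and lists of 6 values run from WT 1 to WT 3 and then from ArcSwe 1 to ArcSwe 3.

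The 32 genes made up a large share of the RNA in vessel cells, and 1 mouse stood below the rest. In endothelial cells they gave 4.02, 4.34, 2.07, 4.37, 3.57 and 3.58% of all UMIs, and in smooth muscle cells 5.92, 5.88, 2.63, 5.30, 5.12 and 4.85%. In both classes the other 5 mice lay close to each other, and WT 3 lay far below each of them. Microglia gave 5.61, 5.63, 1.63, 3.95, 2.66 and 2.80%, with WT 1 and WT 2 highest, WT 3 lowest and the ArcSwe mice between them. The clusters that made up the microglial class differed between mice, as given below. WT 3 was also lowest in all 16 clusters with at least 20 cells in every library, 15 of them named, where the median of the other 5 mice was 1.24 to 2.38 times its value. WT 3 was singled out after these values were seen, so its place is given as a description.

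**Figure D1:**
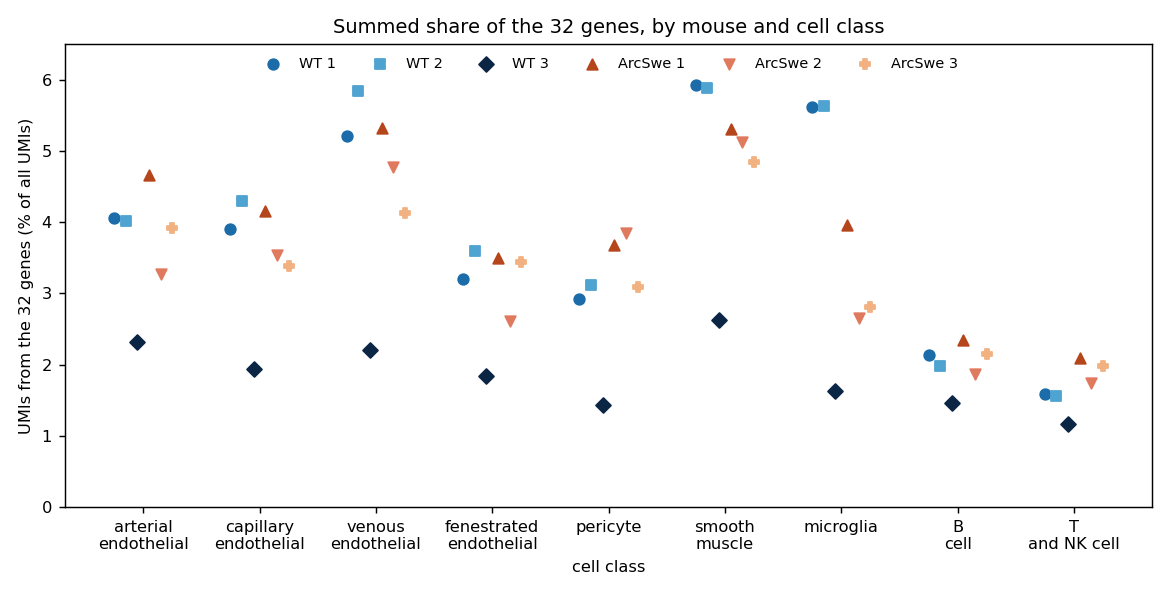
UMIs from the 32 genes as a percentage of all UMIs, for each of the 6 mice (points) in 9 cell classes. WT 3 (dark diamonds) lies below the other 5 mice in each of the 9 classes, and B cells and T and NK cells have lower shares than endothelial cells in each mouse.

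The AP-1 genes, which encode the subunits that pair on AP-1 sites, showed the pattern most strongly in endothelial cells. Fos was at 4253, 4634, 2070, 5112, 4068 and 3728 CPM, and its close relative Fosb at 1458, 1586, 591, 1729, 1515 and 1545 CPM. Jun read 5484, 5334, 2144, 5529, 4720 and 4239 CPM. For each of these genes WT 3 lay below all other mice, while WT 1, WT 2 and the ArcSwe mice overlapped. Junb levels were 3476, 3571, 1650, 3990, 3088 and 2853 CPM, and those of Jund, whose message is less inducible than that of Jun, were 3463, 3467, 1474, 3508, 3089 and 2848 CPM. The widest gap was that of Atf3, a stress-induced factor of the same bZIP class, at 1971, 2327, 370, 2011, 1493 and 1494 CPM. Over the 7 genes, all of which were lowest in WT 3, the median of the other 5 mice was 2.05 to 5.33 times the WT 3 level.

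Egr1, a zinc finger factor induced through serum response factor, was at 1839, 2054, 954, 2160, 1713 and 1757 CPM, and the orphan nuclear receptor Nr4a1 at 404, 404, 142, 455, 383 and 363 CPM. Again WT 3 alone was low, and the remaining WT and ArcSwe mice overlapped. Among the Krüppel-like factors, Klf4 followed this pattern at 2100, 2304, 1132, 2205, 1964 and 2068 CPM. Klf2 varied little, at 3947, 3763, 2934, 3834, 3213 and 4105 CPM, so that the other mice exceeded WT 3 by a median of 1.31 times only. Dusp1, the phosphatase that acts on MAP kinases in the nucleus, read 1261, 1390, 831, 1496, 1303 and 1335 CPM, and Ier2, an early response protein of the nucleus, 1583, 1447, 960, 1570, 1271 and 1270 CPM. These were low in WT 3 by smaller factors of 1.61 and 1.51.

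Other feedback genes varied more than Dusp1. Rgs16, which shortens signalling by G proteins, was at 96.1, 92.0, 23.4, 111, 71.4 and 48.4 CPM, and Socs3 at 324, 384, 116, 442, 278 and 266 CPM. In both, WT 3 was lowest and ArcSwe 1 highest. Apold1, an early response gene of endothelium, was at 662, 865, 338, 741, 668 and 618 CPM, with WT 3 again lowest. Tcim departed from the pattern, at 118, 158, 71.7, 91.2, 62.9 and 71.3 CPM, with WT 1 and WT 2 highest and WT 3 within the range of the ArcSwe mice.

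The inducible heat shock genes, which encode near-identical Hsp70 proteins and between which reads could be split, followed another order of mice. Hspa1a was at 609, 1220, 540, 775, 582 and 739 CPM, and Hspa1b at 150, 432, 167, 315, 216 and 195 CPM. Here WT 2 stood highest and WT 3 was close to WT 1.

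Across all 32 genes, 29 were lower in WT 3 than in each of the other 5 mice in endothelial cells, the exceptions being Gadd45b, Hspa1b and Tcim. Of 8569 genes of at least 10 CPM, WT 3 was the lowest mouse for 14.6% and the highest for 35.8%. Of members of at least 10 CPM, those lowest in WT 3 were 27 of 32 in arterial, 29 of 32 in capillary and 29 of 32 in venous endothelial cells, 25 of 30 in pericytes, 27 of 31 in smooth muscle cells and 18 of 30 in microglia. The corresponding shares of all genes lay between 11.4 and 14.8%. In the smaller classes the counts, out of all 32, were 20 in fenestrated endothelial cells, 15 in B cells and 14 in T and NK cells. By role, the median ratio of the other mice to WT 3 in endothelial cells was 2.35 for the AP-1 genes, 2.25 for the feedback inhibitors, 2.19 for the EGR and NR4A factors, 1.86 for the KLF factors, 1.64 for growth arrest and stress, 1.57 for the endothelial and secreted genes and 1.33 for heat shock. The AP-1 genes were also highest in arterial (1.92) and venous cells (2.85). In capillary cells the EGR and NR4A factors (2.57) and the feedback inhibitors (2.44) exceeded the AP-1 genes (2.33).

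**Figure D2:**
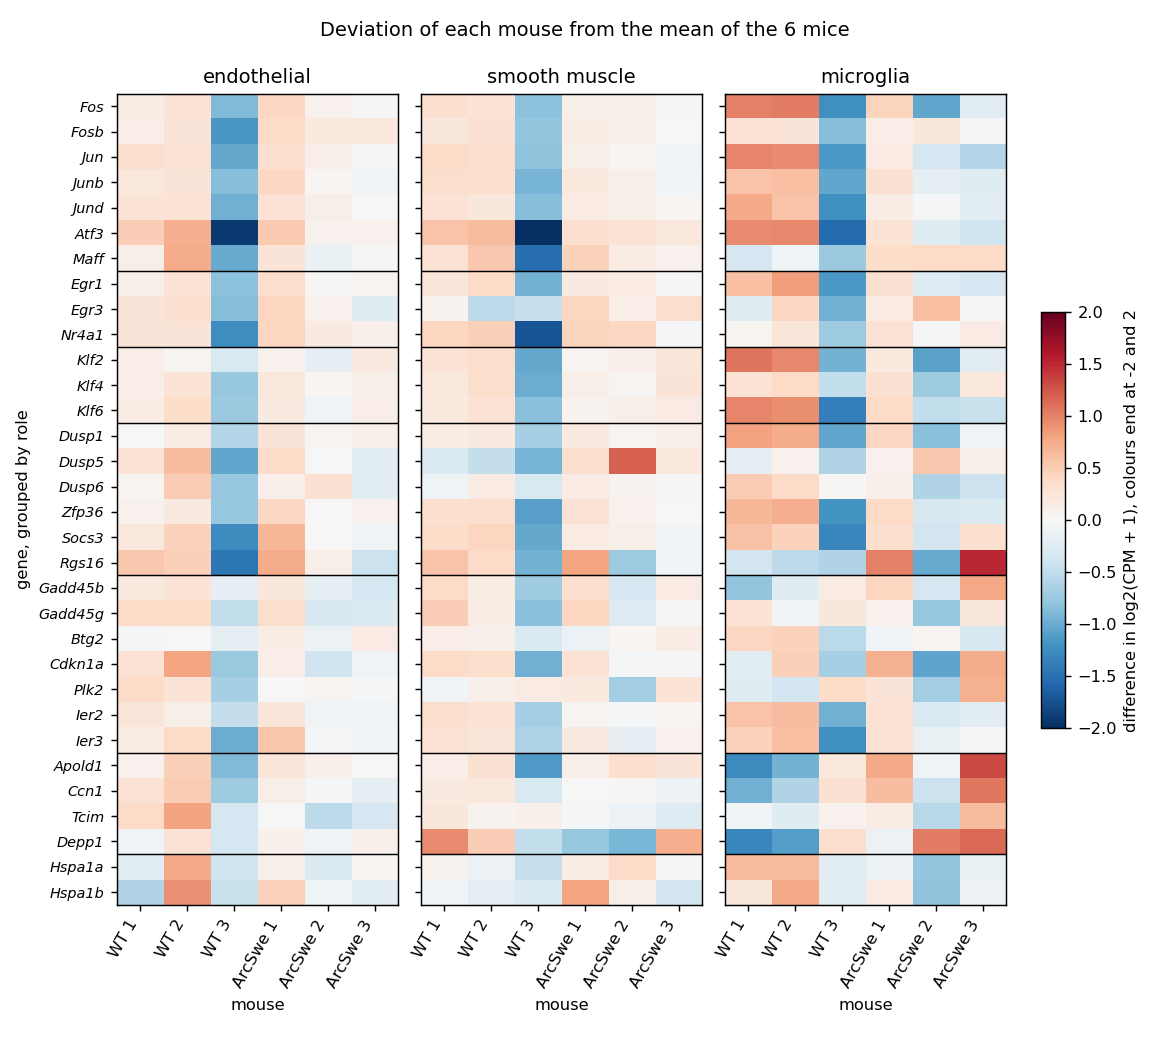
Difference of each mouse from the mean of the 6 mice in log2(CPM + 1), for the 32 genes (rows, with lines between the groups by role) in endothelial cells, smooth muscle cells and microglia. The WT 3 column is blue for nearly all genes in the first 2 panels, while in microglia WT 1 and WT 2 are high for Fos, Jun, Klf2 and Klf6 and low for Apold1, Ccn1 and Depp1.

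Related genes chosen from the same pathways, not members of the 32, deviated less in WT 3. On the log2 scale, the mean deviation of WT 3 from the 6 mice in endothelial cells was -0.79 over the 32 genes and -0.32 over other early genes such as Egr2, Nr4a2 and Myc, of which 14 of 28 tested were lowest in WT 3. It was -0.53 over 7 early targets of NF-kB, with 6 lowest in WT 3, and -0.18 over 12 chaperones, with 2 lowest. WT 3 did not have the shallowest cells, with a median of 3432 UMIs per endothelial cell against 2873 in ArcSwe 3 and 3894 to 5555 in the others. Its median mitochondrial share in these cells was 2.65%, against 1.55 and 1.68% in WT 1 and WT 2 and 2.18 to 2.84% in the ArcSwe mice. The part of either measure in the low values was not tested.

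WT 3 had fewer endothelial cells with a Fos UMI, and fewer cells with many UMIs of the 32 genes. With every endothelial cell thinned to 1000 UMIs, 67.5, 71.2, 48.4, 73.3, 62.4 and 67.8% of cells had a Fos UMI, WT 3 being lowest. The mean was 62.4 ± 12.2% (SD, n = 3) in WT and 67.8 ± 5.45% (n = 3) in ArcSwe, a difference of 5.42 percentage points (exact two-sided permutation test, p = 0.6, where 3 against 3 cannot go below 0.1). Without WT 3 the difference was -1.56 points. Without thinning the shares were 78.3, 80.8, 64.4, 83.4, 74.9 and 82.0%. For comparison, 4 of the 20 choroid plexus or ependymal cells of WT 2, at a median depth of 6060 UMIs before thinning against 4325 in its endothelial cells, had a Fos UMI, although no class here is known to lack the gene.

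Single capillary cells of the same mouse ranged widely. Of 1000 UMIs, the 32 genes gave a median of 31, 37, 11, 34, 26 and 20 UMIs per cell, and in WT 1 the 10th and 90th percentiles were 4 and 77. The variance was 15.3 to 23.0 times the mean in the 6 mice, where counting alone gives a value near 1. Cells with at least 50 such UMIs made up 32.7, 35.8, 6.20, 36.3, 26.8 and 24.5% of capillary cells, and cells with at most 5 made up 14.1, 8.48, 20.8, 13.7, 20.2 and 6.20%. WT 3 therefore had few cells at the high end, while its share of cells at the low end was close to that of ArcSwe 2. Smooth muscle cells were more even, with a median of 63, 63, 25, 54, 54 and 52 UMIs and a variance 8.98 to 11.4 times the mean. In microglia the medians were 52, 53, 15, 32, 26 and 26 UMIs and the ratio was 3.60 to 9.61.

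**Figure D3:**
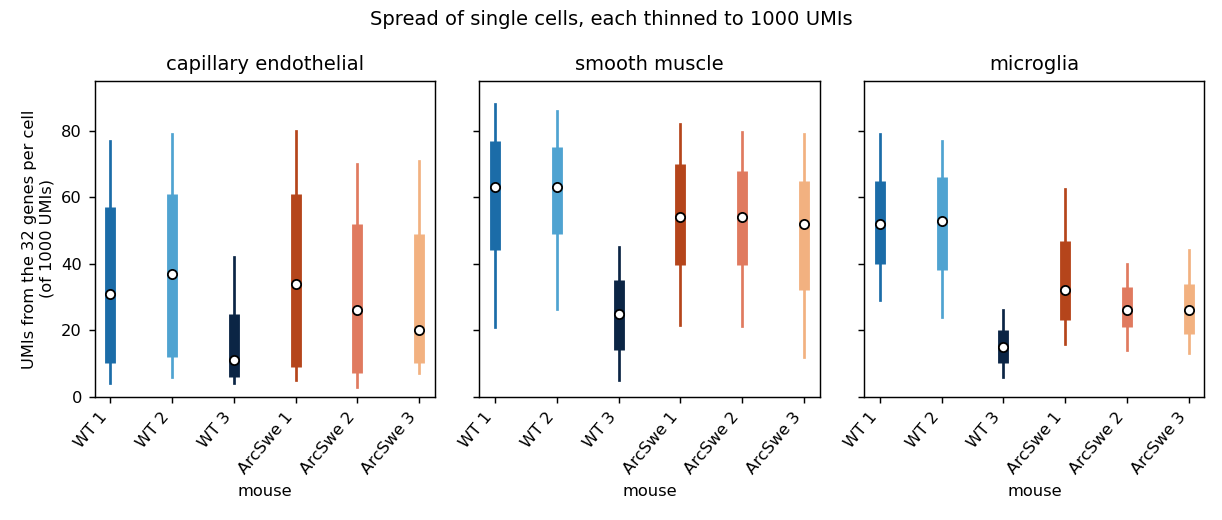
UMIs from the 32 genes per cell after each cell was thinned to 1000 UMIs, for capillary endothelial cells, smooth muscle cells and microglia of each mouse. White points are medians, thick bars run from the 25th to the 75th percentile and thin bars from the 10th to the 90th. The 10th to 90th percentiles of capillary cells run from 4 to 77 UMIs in WT 1 and from 4 to 42 in WT 3, and WT 3 has the lowest median in each panel.

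The genes went together from cell to cell. Among capillary cells thinned to 1000 UMIs, each of the 31 other genes was found in a larger share of the cells with a Fos UMI than of those without, in 6 of 6 mice. Junb was in 71.1 to 90.3% of cells with Fos and 27.1 to 45.6% of cells without, and Fosb in 42.0 to 74.8% against 13.7 to 24.5%. Atf3 had 28.3 to 73.5% against 10.9 to 29.2%. The smallest median differences were those of Dusp5, at 1.8 percentage points, and Depp1, at 2.5, both detected in few cells. Smooth muscle cells had 24 of 31 genes with a larger share in cells with Fos in 6 of 6 mice, and microglia had 11 of 31. The counts of these classes cannot be compared, since few smooth muscle cells lacked a Fos UMI in most mice. By mouse, 83.3 to 97.2% of smooth muscle cells had one (176 of 183 in ArcSwe 2), against 48.1 to 89.95% of microglia. No count over other genes is given. The shares with and without Fos are a description, since all genes of a cell come from the same library and depth.

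Capillary and arterial cells also fell into clusters that differed in these genes, although the genes had not been used to make the clusters. A cluster of 2617 cells was counted as capillary but led by Ccn3, Cdh13 and Lypd1, with 0 capillary markers among its 10 leading genes. These 10 included Egr3, Apold1 and Depp1, which are among the 32 genes, and S100a6, which the study lists for arterial branch point cells. That list also holds a gene printed as Chd13, which may stand for Cdh13. In this cluster the 32 genes summed to 52695 to 58186 CPM outside WT 3 and 33728 CPM in WT 3. In another capillary cluster, of 4388 cells, the sum was 18518 to 27050 CPM in the 5 mice and 15665 CPM in WT 3. Of the arterial clusters, that of 1663 cells summed to 49502 to 60560 CPM, with 27464 CPM in WT 3, and that of 3095 cells to 23299 to 35419 CPM, with 19408 CPM in WT 3. WT 3 was the lowest mouse within each of them. Other clusters counted as capillary without such a marker were those of 3261 cells, led by the interferon response genes Ifit3 and Ifit1, and of 2143 cells. With these and the first left out, an alternative chosen after the data were seen, the 32 genes gave 3.46, 3.90, 1.73, 3.88, 3.26 and 3.03% of the UMIs of capillary cells, and 29 were still lowest in WT 3.

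The comparison of ArcSwe with WT, which asks whether the transgene changed these genes, called none of them in any of 7 classes. In edgeR's quasi-likelihood test on summed counts with Benjamini-Hochberg adjustment over all genes, 0 of 32 genes had an adjusted p under 0.05 in endothelial cells, where percent called among all 13469 genes was 0. An unadjusted p under 0.05 was found for 0 of the 32 and for 595 of the 13469 genes. DESeq2 also called 0 in each class. In these cells 22 of 32 genes had a higher fitted level in ArcSwe, with a median log2 fold change of 0.12 against -0.0016 over all genes, and 0 of 32 had CPM values that did not overlap between the genotypes, where 10.9% of genes had such values. The 3 genes of at least 10 CPM with the largest log2 fold changes were Tcim (log2 fold change -0.61 ± 0.29, SE), Fosb (0.41 ± 0.34) and Nr4a1 (0.35 ± 0.37), whose adjusted p were 0.992. The interval of 1 SE around the Fos change, 0.25 ± 0.31, included 0.

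By zone the counts were alike. In arterial cells 27 of 32 genes were higher in ArcSwe (median log2 fold change 0.18), in capillary cells 22 (0.12) and in venous cells 22 (0.11), with 0 called and 0 at an unadjusted p under 0.05 in each, and 0 not overlapping. Among all genes the called shares were 0.00917% in arterial, 0% in capillary and 0% in venous cells, and the shares not overlapping were 9.49, 11.6 and 8.75%. In these zones 429 of 10906, 590 of 12953 and 346 of 9302 genes had an unadjusted p under 0.05. Fosb was among the 3 genes with the largest log2 fold changes in each zone, at 1162, 1141, 671, 1515, 1115 and 1346 CPM in arterial, 1476, 1595, 551, 1677, 1538 and 1536 CPM in capillary and 1991, 2639, 643, 2528, 2483 and 2110 CPM in venous cells. Its log2 fold changes were 0.45, 0.40 and 0.43 with all mice and 0.22, 0.04 and 0.03 without WT 3. In each zone its WT and ArcSwe values overlapped.

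Tcim, a gene known for its part in cell proliferation, was lower in the ArcSwe mean in arterial cells at 83.1, 141, 73.4, 80.0, 45.3 and 68.2 CPM (log2 fold change -0.55 ± 0.26, SE) and in capillary cells at 133, 171, 74.7, 102, 70.7 and 76.1 CPM (-0.59 ± 0.30). In both zones WT 3 lay within the range of the ArcSwe mice, and the adjusted p in edgeR were 1.00 and 0.968. Arterial Nr4a1 was at 552, 576, 226, 747, 491 and 568 CPM, capillary Cdkn1a, an inhibitor of the cell cycle, at 649, 907, 298, 571, 413 and 503 CPM. In venous cells Depp1, a target of FOXO factors, was at 38.2, 52.1, 19.7, 41.8, 59.3 and 44.96 CPM and Gadd45b at 338, 482, 263, 338, 242 and 226 CPM. Of these 4, Nr4a1, Cdkn1a and Depp1 had WT 3 as their lowest mouse and Gadd45b had ArcSwe 3.

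The 3 genes that varied most within a genotype were Atf3, Rgs16 and Socs3 in each zone. Atf3 ran from 417 to 1978 CPM in arterial cells, where the 6 values were 1637, 1524, 417, 1978, 1145 and 1530. Capillary Atf3 values were 1959, 2410, 349, 1952, 1530 and 1453 CPM, and venous ones 2920, 3345, 387, 2506, 2123 and 1703 CPM. WT 3 lay far below the rest in all of them. Rgs16 was at 60.9, 46.5, 15.1, 75.5, 42.8 and 31.4 CPM in arterial, 85.3, 83.8, 17.7, 89.3, 69.3 and 43.8 CPM in capillary and 301, 322, 81.9, 339, 184 and 125 CPM in venous cells, where ArcSwe 3 came next to WT 3. Socs3 had 415, 418, 170, 636, 341 and 342 CPM in arterial, 273, 347, 83.9, 347, 248 and 206 CPM in capillary and 654, 782, 183, 754, 436 and 510 CPM in venous cells, again with WT 3 lowest.

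The 32 genes varied more between mice of the same genotype than most genes did. Whether this limited the comparison was not tested. The spread pools both genotypes and includes WT 3, the lowest mouse for 29 of the 32 genes in endothelial cells. How much of it came from WT 3 alone was not tested. In endothelial cells the median within-genotype SD of log2 CPM was 0.48 over the 32 genes and 0.13 over 8570 genes of at least 10 CPM, and 1.79% of those genes exceeded the median of the 32. It ran from 0.13 for Btg2 to 1.05 for Atf3. In arterial, capillary and venous cells the medians were 0.40, 0.52 and 0.61 against 0.18, 0.13 and 0.24, in pericytes 0.53 against 0.33, in smooth muscle cells 0.47 against 0.19 and in microglia 0.70 against 0.34.

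The direction of most differences rested on WT 3 in endothelial and smooth muscle cells. Without this mouse 4 of 32 genes were higher in ArcSwe in endothelial cells. Their median log2 fold change became -0.18, against 0.0099 over all genes. Of the 32, 0 were called, against 0 of 13776 genes, and 4 had an unadjusted p under 0.05. The counts of higher genes were 14, 4 and 7 in arterial, capillary and venous cells. Their medians were -0.04, -0.19 and -0.21, with 3, 7 and 6 unadjusted. In smooth muscle cells 6 were higher, with a median of -0.19 and 11 unadjusted. There 0 were called, against 0 of 10846 genes. In microglia 12 were higher, with a median of -0.42 and 18 unadjusted. There 1 was called, against 210 of 11984 genes. Unadjusted counts over all genes are not given for these fits. A fit without WT 3 leaves 2 WT mice, so it is given as a measure of how far 1 mouse decided the direction.

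**Figure D4:**
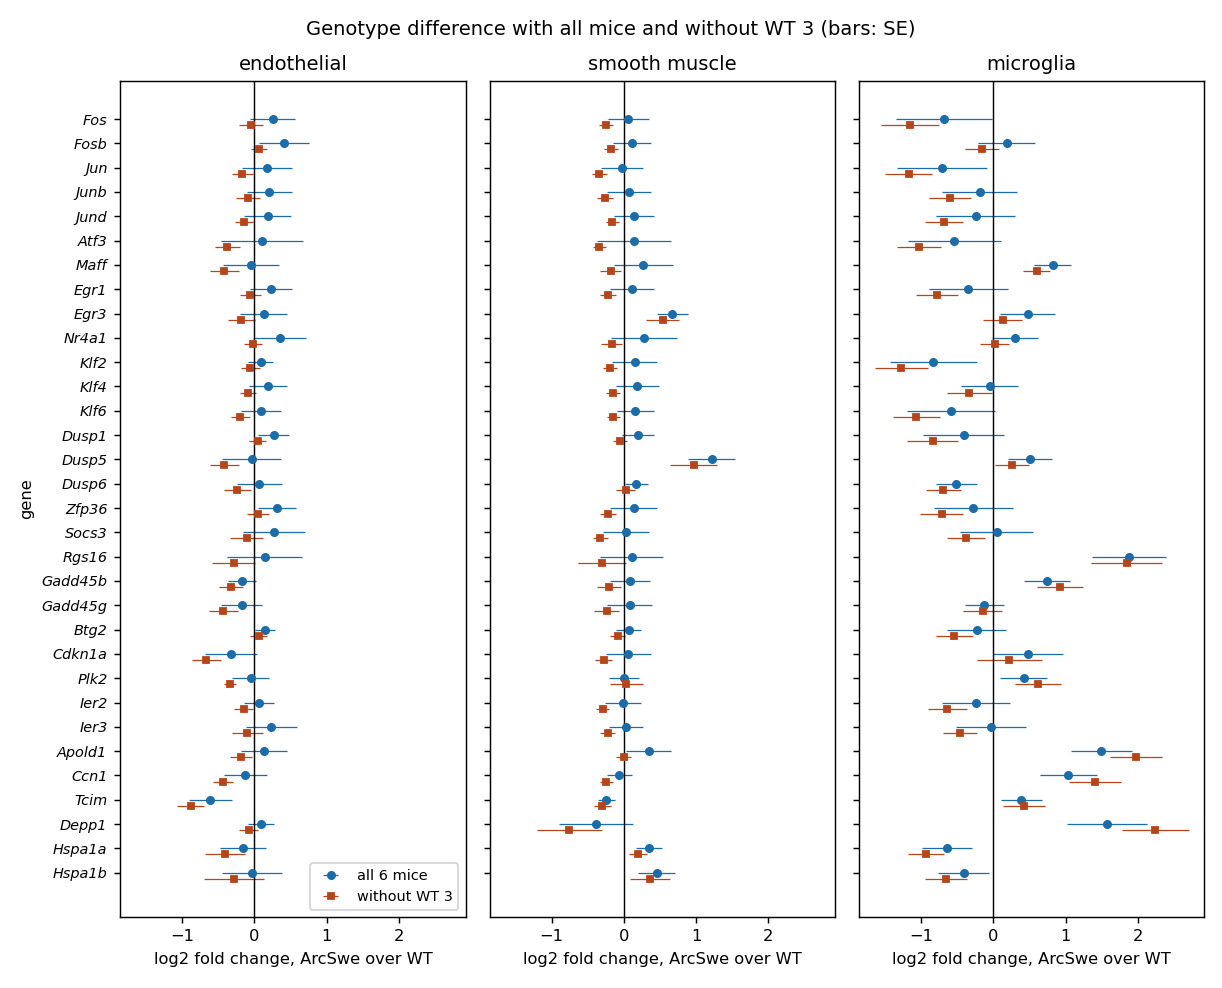
Log2 fold change of ArcSwe over WT with its SE for the 32 genes in endothelial cells, smooth muscle cells and microglia, with all 6 mice (blue circles) and without WT 3 (red squares). In endothelial cells the median moves from 0.12 to -0.18 and in smooth muscle cells from 0.11 to -0.19, and in microglia from -0.09 to -0.42.

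Pericytes, the cells wrapped around capillaries, had the highest median of the 7 classes. Of 30 genes tested, Dusp5 and Depp1 being too low, 28 were higher in ArcSwe, with a median log2 fold change of 0.55. Of the 30, 8 had an unadjusted p under 0.05, against 206 of all 6749 genes, and 0 were called, as were 0% of all genes. CPM values did not overlap for 5 genes, all higher in ArcSwe, where 8.48% of genes had such values. Klf4 was at 775, 716, 417, 1232, 941 and 1166 CPM (log2 fold change 0.86 ± 0.26, SE), every ArcSwe mouse above every WT mouse. The kinase gene Plk2 was at 74.5, 87.2, 59.05, 175, 57.7 and 150 CPM (0.91 ± 0.34), with ArcSwe 2 below all WT mice. Rgs16 stood at 74.5, 169, 49.5, 124, 361 and 69.5 CPM (0.89 ± 0.60), with ArcSwe 2 alone high. Their adjusted p in edgeR were 1.00. Without WT 3 the median was 0.30, 26 of 30 genes were higher and 1 had an unadjusted p under 0.05, again with no such count over all genes. Pericytes numbered 50 to 363 cells per mouse, and Cdkn1a, at 197, 379, 101, 237, 43.3 and 232 CPM, and Atf3, at 867, 1425, 215, 1295, 1183 and 1109 CPM, were among the genes with the widest spread. Endothelial markers summed to 3863 to 5326 CPM in WT and 2528 to 7959 CPM in ArcSwe pericytes, and erythroid markers to 50.6 to 3857 and 350 to 4074 CPM. Their part in the values was not tested.

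In smooth muscle cells 27 of 32 genes were higher in ArcSwe, with a median log2 fold change of 0.11. Of the 32, 2 had an unadjusted p under 0.05, against 374 of all 10809 genes, and 0 were called, against 0% of all genes. The genotypes did not overlap for Dusp5 and Egr3, which were higher, and Tcim, which was lower, where 9.78% of genes did not overlap. Dusp5, a dual specificity phosphatase of the nucleus, was low at 10.3, 8.91, 6.26, 16.2, 30.2 and 15.02 CPM (log2 fold change 1.22 ± 0.32, SE). Egr3 was at 17.2, 11.0, 11.7, 22.4, 18.1 and 21.2 CPM (0.67 ± 0.21). For both the adjusted p was 1.00. Hspa1b was at 158, 143, 135, 284, 177 and 125 CPM (0.45 ± 0.26), ArcSwe 3 lying below all WT mice. The widest spread was that of Atf3, at 3481, 3623, 579, 2943, 2819 and 2709 CPM, Nr4a1, at 1475, 1528, 329, 1497, 1462 and 1073 CPM, and Maff, a small Maf protein, at 98.0, 117, 27.6, 110, 89.2 and 85.3 CPM. In each of them WT 3 was lowest. WT 1 and WT 2 lay above every ArcSwe mouse for Atf3 and overlapped with them for Nr4a1 and Maff.

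Microglia, the brain's macrophages, came through the bead capture with the vessels. Of 32 genes 14 were higher and 18 lower in ArcSwe, with a median log2 fold change of -0.09 that ran from -0.42 to 0.11 as each mouse was left out. An unadjusted p under 0.05 was found for 6 of them, against 883 of all 11573 genes. Of the 32, 0 were called, against 0.0346% of all genes. Dusp5 and Maff did not overlap, both higher in ArcSwe, where 16.5% of genes did not overlap. Fos was at 5094, 5189, 1081, 3444, 1241 and 2195 CPM, Klf6 at 2120, 2069, 420, 1413, 768 and 798 CPM, and Atf3 at 5788, 5870, 1033, 3655, 2554 and 2301 CPM. WT 1 and WT 2 were highest and WT 3 lowest in all of these, so the ArcSwe mice lay within the range of WT. Klf2 was at 4676, 4341, 1161, 2565, 1060 and 1926 CPM (log2 fold change -0.83 ± 0.60, SE), with ArcSwe 2 lowest. Adjusted p were 0.377 or above for all 32 genes in edgeR.

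The microglial class was made of different clusters in different mice. A cluster of 1645 cells with median depths of 4624 to 6604 UMIs held 764 of 1042 microglia in WT 1 and 601 of 908 in WT 2, but 58 of 1501 in WT 3 and 179 of 1125, 7 of 225 and 36 of 2379 in the ArcSwe mice. A cluster of 1444 cells with few ribosomal transcripts held 1337 of the cells of WT 3, and another of 3434 cells held 769, 201 and 1822 of those of ArcSwe 1, ArcSwe 2 and ArcSwe 3. These had median depths of 1197.5 and 1241 UMIs. Their median ribosomal shares were 2.02 and 2.13%, against 5.03% in the cluster of 1645 cells. The study removed a microglial cluster low in ribosomal and high in mitochondrial genes. Here such cells are part of all microglial values unless stated, so these values compare unlike cells between mice. Within the cluster of 1645 cells the 32 genes summed to 58476, 59976, 17317, 56785, 32000 and 38429 CPM, the ArcSwe 2 value resting on 7 cells. Within the cluster of 3434 cells they summed to 37829, 37968, 21080, 33061, 27019 and 28878 CPM. WT 3 was thus lowest and ArcSwe 1 closest to WT 1 and WT 2 in both. With the low-ribosomal clusters left out, 0 of the 32 genes were called and the median log2 fold change was -0.066. That leaves 15 cells of ArcSwe 2, and of the 486 cells of ArcSwe 3 it keeps, 427 are in a cluster led by Cst7, Cxcl10 and Tnf, while most cells of WT 1 and WT 2 are in that of 1645 cells.

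In microglia 2 genes with much higher levels in endothelial cells had another order of mice. Apold1 was at 25.01, 31.8, 71.7, 106, 59.1 and 156 CPM (log2 fold change 1.497 ± 0.42, SE, adjusted p = 0.395 in edgeR), and Ccn1, a secreted matrix protein, at 33.3, 42.8, 81.5, 102, 48.6 and 138 CPM (1.04 ± 0.40, adjusted p = 0.604). WT 1 and WT 2 were lowest and ArcSwe 3 highest, and the genotypes overlapped through WT 3 and ArcSwe 2. Without WT 3, Apold1 had a log2 fold change of 1.98 and an adjusted p of 0.0445. The 8 endothelial markers summed in microglia to 704, 708, 2956, 2151, 791 and 4903 CPM, with WT 1 and WT 2 again lowest and ArcSwe 3 again highest, and their part in these values was not tested. The microglial markers themselves summed to 13560, 12886, 10598, 9460, 10144 and 7502 CPM.

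Neither difference between classes was called. The genotype effect in microglia minus that in endothelial cells, tested as an interaction with mouse as a block in edgeR, called 0 of 32 genes and left 2 below an unadjusted p of 0.05, where percent called among all genes was 0. The smallest p was that of Rgs16 (difference in log2 fold change 1.81 ± 0.70, SE, adjusted p = 0.710). For mural cells, pericytes and smooth muscle together, minus endothelial cells it gave 0 called and 2 unadjusted, again against 0% of all genes, led by Dusp5 (1.14 ± 0.34, adjusted p = 1.0). Without WT 3 both still called 0 of 32 genes, with 16 and 4 below an unadjusted p of 0.05. Among all genes, 922 of 13671 and 525 of 13544 were below this threshold with all mice. Without WT 3 they were 2733 of 13880 and 636 of 13692.

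Of the related lists, the 12 chaperones, which hold proteins in shape and of which some are induced by heat, were lower in ArcSwe for 12 of 12 genes in endothelial cells (median log2 fold change -0.25) and 11 of 12 in microglia (-0.41), with 0 called in each and 0 and 1 at an unadjusted p under 0.05. Other early genes were divided, 15 of 28 being higher in endothelial cells (0.01) and 14 of 26 in microglia (0.08), with 0 called and 1 and 2 unadjusted. Early NF-kB targets were higher for 6 of 7 genes in endothelial cells (0.37) and 4 of 7 in microglia (0.42), with 0 called and 3 and 0 unadjusted. In each class 6 of these 7 were lowest in WT 3. Without WT 3 their medians were 0.15 in endothelial cells and 0.066 in microglia. Those of the chaperones were then -0.38 and -0.60, and those of other early genes -0.16 and -0.25.

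Genes that microglia are known to switch on outside the brain, such as Ccl3, Il1b and Tnf, were higher in ArcSwe for 6 of 7 tested in microglia (median log2 fold change 0.63), with 1 called, the chemokine gene Cxcl2, against 0.0346% of all genes, and 3 unadjusted. Their mean deviation in microglia was -0.07, -0.06, -1.92, 0.90, 0.34 and 0.80 on the log2 scale, so WT 3 was also the lowest mouse for these. Ccl3, Ccl4, Il1b and Tnf were among the leading genes of a microglial cluster of 595 cells. So were Cst7, Clec7a and Spp1, which the study names for disease-associated microglia. This cluster held 4, 4, 22, 132, 6 and 427 cells of the 6 mice. Its part in the higher values was not tested. In endothelial cells 6 of 6 tested genes of this list were higher (1.80), with 0 called and 2 unadjusted. There their deviation was highest in ArcSwe 3, at 1.97, and lowest in ArcSwe 2, at -1.17, and the microglial markers in endothelial cells were at 437 and 209 CPM in these mice, against 125, 145 and 378 CPM in WT and 250 CPM in ArcSwe 1.

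Levels also differed between the cell classes of a mouse. No test is given for this, since classes and levels come from the same cells, and every pair was compared within each mouse. Venous endothelial cells, which line the vessels that leukocytes use to enter tissue, had a larger share than capillary cells in 6 of 6 mice, with a median ratio of 1.31 (5 of 6 mice and a lowest ratio of 0.997 at clustering resolution 2). In them 18 of 32 genes were higher in 6 of 6 mice and 5 lower, against 11.9 and 25.8% of all genes of at least 10 CPM. The median log2 difference was 1.86 for Rgs16, 1.57 for Ier3, 1.14 for Socs3 and 0.93 for Zfp36, and it was -1.56 for Tcim, -1.27 for Dusp6 and -0.79 for Ccn1. Venous Ier3, a regulator of survival, was at 3230, 4130, 1350, 3572, 2364 and 2306 CPM, and its range did not meet that of capillary cells, the next class. The feedback inhibitors were thus divided, with Rgs16, Socs3 and Zfp36 higher and Dusp6 lower, while Fos differed by 0.39.

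Arterial cells had 9 genes higher than capillary cells in 6 of 6 mice, against 21.5% of all genes, and 5 lower, against 23.3%. The higher ones were led by Gadd45g (median log2 difference 0.86), Nr4a1 (0.80) and Depp1 (0.75), and Dusp6 (-0.83) led the lower ones. Depp1 was highest in arterial cells of all 9 classes, its range lying above that of every other class. Fenestrated endothelial cells, which lack the barrier, had far more Tcim, at 808, 1072, 875, 634, 734 and 599 CPM, 2.80 above capillary cells on the log2 scale in 6 of 6 mice. Plk2 was also highest there, at 718, 664, 285, 679, 562 and 550 CPM, and Rgs16 was lowest of the endothelial classes, at -3.05 relative to capillary cells.

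Smooth muscle cells, the contractile cells of arterioles, exceeded pericytes in 6 of 6 mice, with a median ratio of summed levels of 1.70. In them 16 genes were higher in 6 of 6 mice, against 13.6% of all genes, and 5 lower, against 33.5%. Nr4a1 led at a median log2 difference of 2.18, and Zfp36 (1.38) and Atf3 (1.32) were among the others, while Rgs16 (-2.20) and Hspa1b (-1.24) were lower. Fos was highest in smooth muscle cells of all 9 classes, at 11165, 10738, 5025, 9623, 9590 and 8590 CPM, 1.90 times the venous value at the median. The heat shock genes were instead highest in pericytes, where Hspa1a was at 1939, 1670, 590, 1635, 2391 and 1476 CPM and Hspa1b at 343, 624, 212, 676, 837 and 295 CPM. They exceeded endothelial cells in 6 of 6 mice by 1.04 and 0.85 on the log2 scale.

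Microglia exceeded endothelial cells in 6 of 6 mice for 4 genes, Atf3 (median log2 difference 1.10), Btg2 (0.97), Klf6 (0.68) and Zfp36 (0.43), and were lower for 13, with Rgs16 (-3.94), Ccn1 (-3.26) and Apold1 (-3.13) at the end of the range. Among all genes 32.04% were higher and 43.4% lower in 6 of 6 mice. Lymphocytes had less than endothelial cells, with summed levels 0.53 times those of endothelial cells in B cells and 0.48 times in T and NK cells, below in 6 of 6 mice. Single genes were higher in 6 of 6 mice, 3 in B cells (Dusp5, Nr4a1 and Egr3) and 2 in T and NK cells (Dusp5 and Klf6). The widest difference was that of Dusp5, at 358, 453, 95.2, 328, 250 and 263 CPM in T and NK cells and 73.8, 117, 39.0, 105, 69.7 and 55.8 CPM in B cells, which was 3.86 and 1.96 higher than in endothelial cells on the log2 scale. Egr3 was highest in B cells, at 168, 156, 68.2, 197, 116 and 120 CPM. WT 3 was the lowest mouse in each of these sets of values.

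**Figure D5:**
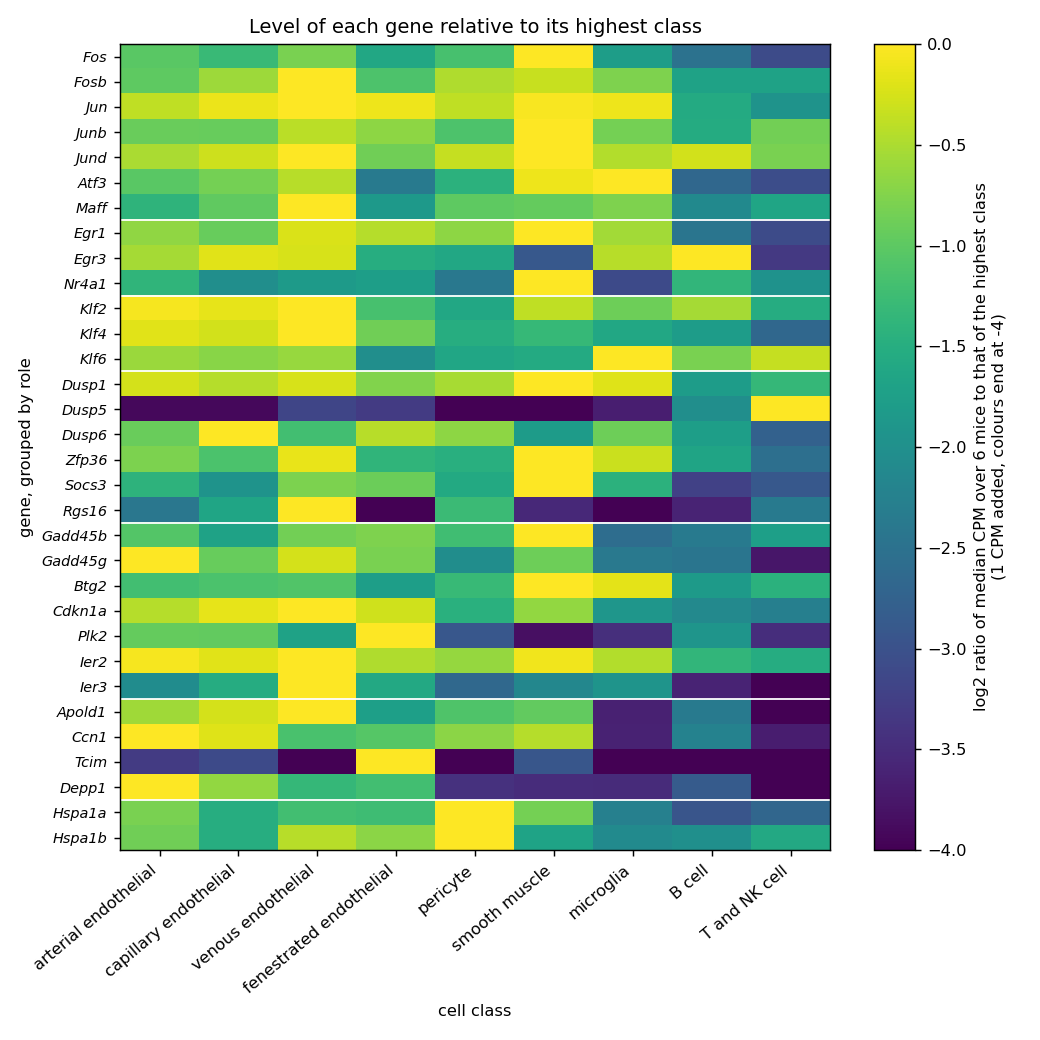
Median CPM over the 6 mice of each of the 32 genes in 9 cell classes, as the log2 ratio to the class in which that gene is highest (yellow, 0; dark, -4 or lower, with 1 CPM added). Smooth muscle cells and venous endothelial cells hold the highest level of most AP-1, feedback and KLF genes, while Tcim peaks in fenestrated endothelial cells, Dusp5 in T and NK cells and the heat shock genes in pericytes.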

How the data were processed

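Single-cell libraries of 3 WT and 3 ArcSwe mice were analysed from the deposited raw UMI counts, which the authors made with Cell Ranger 7.0.0 on mm10, per the labels. Cells with 500 to 4500 genes and under 10% mitochondrial counts were kept, normalised to 10000 UMIs, and clustered on 2000 variable genes without the listed genes (30 components, 20 neighbours, Leiden resolution 1). Clusters were named from at least 3 markers. No doublet caller was run, clusters with markers of several types stayed unnamed, and barrier endothelial cells with a Cx3cr1 or Aif1 UMI were left out, as in the study. Low-ribosomal microglial clusters were kept, where the study removed such a cluster, and were left out as an alternative.

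Counts were summed per mouse and class, and genes for ribosomal proteins, mitochondrial genes, pseudogenes and Rik genes did not enter the tests. ArcSwe was compared with WT by edgeR 4.0.16 (quasi-likelihood, filterByExpr, TMM, Benjamini-Hochberg over all genes, threshold 0.05), with DESeq2 as an alternative. The edgeR test was also run on simulated data. CPM used all genes, and deviations between mice used log2(CPM + 1). Thinning drew 1000 UMIs per cell, leaving out shallower cells.

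The 32 genes and the other lists were chosen with earlier results of these data known, so no test over the list is given. A list of upstream signalling genes is not reported here. Genes were named by rule: 15 in endothelial cells, and in each tested class the 3 of greatest log2 fold change in size and the 3 with the largest within-genotype SD among genes of at least 10 CPM. Same-numbered mice of the genotypes deviated together in endothelial cells (correlation over genes 0.37, 0.11 and 0.40 for numbers 1 to 3), smooth muscle cells (0.20, 0.15 and 0.34) and microglia (0.34, 0.11 and 0.36), while in the zones number 2 was lower, at 0.0099 to 0.0742, with 0.13 to 0.38 for numbers 1 and 3, and in pericytes they were -0.12, -0.10 and 0.12. The numbers come from the labels. Mice are separate animals. Depth was 26436229 to 59161203 deposited UMIs per library. Alternatives covered normalization, filtering, tool, replicate block, clustering, cell filters, thinning and leaving out each mouse.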

Additional observations from a re-analysis of the deposited data

How the results depend on the processing

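Leaving out each mouse in turn moved the difference in the share of endothelial cells with a Fos UMI between -1.56 and 9.82 percentage points, the lowest value being that without WT 3. The same range was -0.0185 to 0.59 for the log2 fold change of Nr4a1, -0.0528 to 0.49 for Fos and -0.37 to 0.54 for Atf3 in endothelial cells, -0.66 to 0.11 for Cdkn1a in capillary cells and -0.0038 to 1.56 for Rgs16 in pericytes, where ArcSwe 2 set the high level. Members called in microglia ran from 0 to 1, the 1 being Apold1 without WT 3 (log2 fold change 1.98, adjusted p = 0.0445 in edgeR). With no filter on low counts, 1 member was called in arterial cells (Tcim, -0.55, adjusted p = 0.0191) and 1 in smooth muscle cells (Dusp5, 1.21, adjusted p = 0.00329), and genes called rose from 1 to 96 in arterial cells, from 0 to 41 in venous cells, 80 in pericytes and 49 in smooth muscle cells, and from 4 to 95 in microglia. The cause was not tested. DESeq2 called 9, 9, 13 and 101 genes in endothelial, arterial, capillary and microglial cells, and 0 members. With the replicate block 0 members were called in any class and the median log2 fold change in endothelial cells was 0.19, while the genes called became 6 in arterial and 59 in microglial cells and 1 in venous cells. Over all genes, microglia had 210 calls without WT 3 and 195 without the low-ribosomal clusters, where 15 cells of ArcSwe 2 remain and 427 of 486 cells of ArcSwe 3 are in 1 cluster. The median log2 fold change of the members in microglia was positive without WT 1 (0.08), WT 2 (0.11) or ArcSwe 2 (0.06), with the stricter cell filter (0.018) and with the replicate block (0.0038). At clustering resolution 2 the smooth muscle to pericyte ratio of summed levels was 2.03, and the venous to capillary ratio was above 1 in 5 of 6 mice. Without the clusters counted as capillary that no endothelial or capillary marker led, 0 members were called in capillary cells and the median log2 fold change was 0.18. The deviation of WT 3 in endothelial cells stayed between -0.86 and -0.75 under TMM scaling and other priors.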
